A study of Rattus norvegicus with 12 samples.

Results

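Genes that make fatty acids and genes that burn them were followed in rat entorhino-hippocampal slice co-cultures after the nerve fibres joining both regions were cut. The list held 38 genes, chosen by symbol: the regulators Srebf1 and Ppara, the enzymes of fatty acid synthesis, desaturation, elongation, activation, thioester cleavage, carnitine transfer and oxidation, 2 binding proteins, the kinase gene Pdk4 and the carrier gene Ucp2. Of these, 37 were found among the 14871 genes of the arrays, on 66 spots. Cpt1c had no spot under its symbol or gene identifier and was not analysed here. The members were chosen with earlier results of these data known. A single spot stood for 19 members, and several spots were averaged for the other 18.

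Per the labels, each of 12 arrays held RNA of axotomized co-cultures in one dye and RNA of non-axotomized co-cultures in the other. All cultures had been grown in serum-containing medium, and the cut was made after 15 days in vitro; the controls of each time point were left uncut and collected beside their treated counterparts 1, 3 or 7 days later. Each time point had 2 biological replicates, and each replicate was hybridised to 2 arrays with exchanged dyes. No genetic change is named; the labels give the species as rat, while their treatment protocol speaks of wild type mice, and they do not say whether a replicate comes from a separate animal or culture. The p-values therefore measure the spread between these replicates only, which may be technical.

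Every value below is a log2 ratio of axotomized over non-axotomized cultures, averaged over the 2 arrays of a replicate. Errors are SDs between both replicates (n = 2), and so few replicates limit the precision. No source states the direction, which was taken as likely from the titles and channel order; the opposite reading would turn all signs. The table holds ratios and no signal levels, so the presence of a cell type or of a transcript could not be checked. The slices are mixed tissue, in which fewer cells of a type and less RNA per cell cannot be told apart.

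Fatty acids are built from acetyl-CoA in the cytosol: Acly supplies acetyl-CoA, Acaca carboxylates it to malonyl-CoA and Fasn assembles the chain, which desaturases and elongases then modify. The transcription factor SREBP-1, product of Srebf1, is the main activator of these genes. Breakdown runs in mitochondria after carnitine transfer, with the nuclear receptor PPAR alpha as a main activator, and malonyl-CoA blocks the entry step. In brain, astrocytes carry out most of the fatty acid oxidation, and newly made lipid is used for membranes and myelin.

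The promoter sequences of the 3 members that passed the test are shown first. They are followed by a stretch where Hadhb and Hadha adjoin, neighbouring genes whose ratios stood apart at day 3. All sequences come from RefSeq on the GRCr8 build. They run from 250 bases before to 50 bases after the start of transcription. The last is instead the stretch of 200 bases that the windows of both genes share. Capitals mark CCAAT boxes, read on either strand (ATTGG is the reverse). Outside the shared stretch, in parts not printed, the Hadha window held 1 CCAAT and the Hadhb window 1 AGGTCA.
Srebf1, the upstream one of its 2 windows (chr10:45529115-45529414, minus strand): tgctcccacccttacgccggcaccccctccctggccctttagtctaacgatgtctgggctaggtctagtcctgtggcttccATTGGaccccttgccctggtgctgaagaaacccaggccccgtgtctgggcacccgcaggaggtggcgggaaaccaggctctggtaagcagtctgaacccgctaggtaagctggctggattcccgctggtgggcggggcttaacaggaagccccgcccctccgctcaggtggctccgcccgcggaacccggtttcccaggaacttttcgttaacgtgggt
Acot1 (chr6:109367024-109367323, plus strand): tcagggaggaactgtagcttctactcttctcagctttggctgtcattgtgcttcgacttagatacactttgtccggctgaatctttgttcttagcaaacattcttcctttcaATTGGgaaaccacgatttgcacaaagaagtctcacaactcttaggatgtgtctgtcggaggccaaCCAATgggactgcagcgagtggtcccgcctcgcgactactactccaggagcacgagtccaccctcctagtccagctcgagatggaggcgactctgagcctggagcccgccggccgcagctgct
Cpt2 (chr5:127910769-127911068, minus strand): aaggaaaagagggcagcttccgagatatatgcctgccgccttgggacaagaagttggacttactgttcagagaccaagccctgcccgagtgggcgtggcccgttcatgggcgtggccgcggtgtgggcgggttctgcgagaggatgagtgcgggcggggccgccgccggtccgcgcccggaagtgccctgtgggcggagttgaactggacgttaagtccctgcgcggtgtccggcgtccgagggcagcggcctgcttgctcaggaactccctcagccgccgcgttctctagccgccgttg
Hadhb and Hadha (chr6:31907551-31907750, plus strand): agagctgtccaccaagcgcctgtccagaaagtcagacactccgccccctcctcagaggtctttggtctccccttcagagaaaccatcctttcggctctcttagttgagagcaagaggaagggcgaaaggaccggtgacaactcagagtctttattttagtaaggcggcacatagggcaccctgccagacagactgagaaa

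Such windows were available for 31 of the 38 members, 34 windows in all. Fasn, Acaca, Elovl6, Acadl, Cpt1b, Cpt1c and Fabp5 had none and were not searched. The sterol regulatory element TCACNCCAC, searched on both strands, was in 2 of them, those of Ehhadh and Ucp2, and in 1.12% of the 33469 windows of the genome. The E-box CACGTG, another sequence bound by SREBP-1, was in 1 window (Elovl5) against 6.42% of all. The PPAR response element, searched as a direct repeat of AGGTCA with 1 base between the copies, was in 0 windows of members and in 0.0538% of all windows. A single AGGTCA, which the repeat contains, was in 4 windows (Acacb, Acadvl, Hadhb and Fabp7) against 16.2% of all. CCAAT was in 15 of the 34 windows against 37.5% of all. A match is a description of these letters, and their absence from so short a window says nothing of the factor.

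Since the choice of members was made knowing earlier results, shares of members set beside shares of all genes, here and below, are no independent test. At day 3 Srebf1 fell, and Acot1 and Cpt2 rose. These 3 of 37 members (8.11%) passed in limma's test with Benjamini-Hochberg adjustment over all genes at 0.05, where 1.03% of all genes passed, 0.592% as higher and 0.437% as lower. At day 1 none of the 37 passed and 0.592% of all genes did, although the smallest adjusted p of a member was 0.057. At day 7 no member passed in limma's test, and neither did any other gene (0%). These calls were not kept with a replicate of day 1 or of day 3 left out, and only in part with one of day 7 left out. Such fits leave 1 replicate on a day. Without a replicate of day 1 the day 3 values stayed at -0.49 (Srebf1), 0.76 (Acot1) and 0.30 (Cpt2). Only the estimated spread and its degrees of freedom differed there. With each day fitted alone all 3 calls were lost (adjusted p = 0.121 for Srebf1, 0.135 for Acot1 and 0.199 for Cpt2, limma). In that fit 0 of all 14871 genes passed at day 3. A block for the replicate number in limma's fit lost them as well (adjusted p = 0.0602, 0.0641 and 0.0715). With that block 66 of all genes passed at day 3, beside 153 in the main fit.

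At an unadjusted p under 0.05 in the same fit, 16 of 37 members stood out at day 1 (43.2%, against 13.2% of all genes), 13 at day 3 (35.1%, against 14.4%) and 4 at day 7 (10.8%, against 9.37%). The 16 of day 1 split by role: 6 of 13 synthesis, desaturation and elongation genes were lower and 0 higher, and 6 of 13 thioesterase, carnitine and oxidation genes were higher and 1 lower, where 7.81% of all genes were higher and 5.42% lower. At day 3 the same classes had 2 higher and 2 lower, and 5 higher and 1 lower, beside 7.81 and 6.62% of all genes. The 4 of day 7 were Elovl6 and Acsl3 above 0 (4.83% of all genes were higher) and Acot1 and Acads below (4.53% lower). The values of all members in all replicates are drawn in the heat map by gene class.

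**Figure D1:**
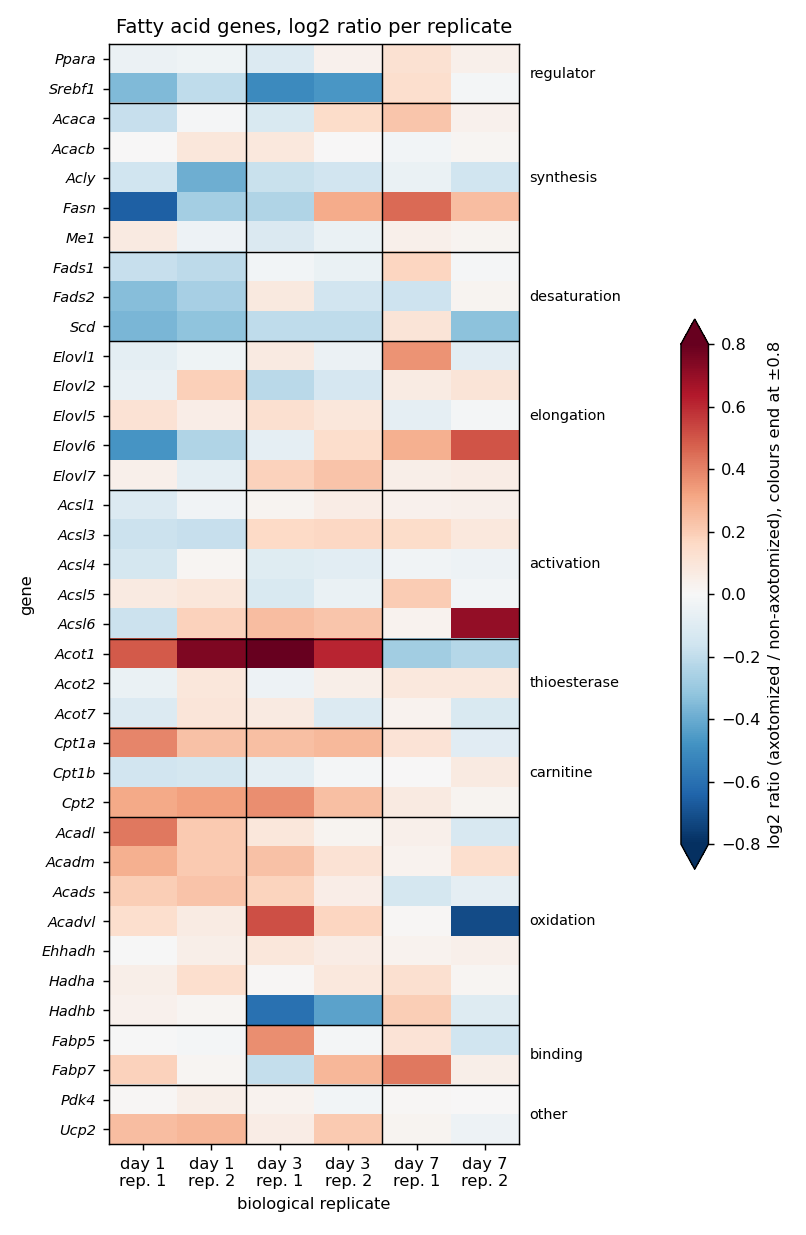
Log2 ratio of axotomized over non-axotomized cultures for the 37 members (rows, grouped by class) in the 6 biological replicates (columns); red is higher and blue lower in axotomized cultures, and colours end at ±0.8. Blue fills most synthesis and desaturation rows at day 1, and red fills Acot1, Cpt1a, Cpt2 and Acadm at days 1 and 3 and Acadl and Acads at day 1, with both patterns fading or turned at day 7.

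Srebf1, the gene of SREBP-1, had ratios of -0.35 and -0.20 in the day 1 replicates, -0.51 and -0.46 at day 3, and 0.14 and -0.02 at day 7. The day 1 and day 3 replicates all lay below 0, and those of day 7 lay on either side of it. The fall at day 3 was -0.49 ± 0.031, a 1.40-fold decrease (adjusted p = 0.0361, limma; 95% confidence interval -0.62 to -0.35). At day 1 the value was -0.28 ± 0.11 (adjusted p = 0.122), and the change from day 3 to day 7 was 0.55 (adjusted p = 0.0758). Of the 8 arrays of days 1 and 3, 7 were below 0. Its 3 spots disagreed: 2 had -0.78 and -0.69 at day 3 and -0.40 and -0.58 at day 1, and the other had 0.0062 and 0.14. The mean over spots is therefore smaller than the value of the other 2 spots. With each spot fitted alone and adjusted over all spots, those 2 had adjusted p of 0.079 and 0.0777 and did not pass. Ppara, the gene of PPAR alpha, had -0.046 and -0.036 at day 1, -0.11 and 0.037 at day 3, and 0.12 and 0.039 at day 7. Its values lay near 0 on all days, with a day 3 mean of -0.035 ± 0.10 (adjusted p = 0.804, limma; 95% interval -0.15 to 0.080).

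The enzymes of synthesis leaned below 0 at day 1, and none passed. Fasn, the fatty acid synthase gene, had -0.65 and -0.27 at day 1, -0.24 and 0.30 at day 3, and 0.45 and 0.25 at day 7. Both day 1 replicates lay below both day 7 replicates, and the day 3 replicates split around 0. Its day 1 mean was -0.46 ± 0.27 (adjusted p = 0.292, limma) and its change from day 1 to day 7 was 0.81 (adjusted p = 0.199; 95% interval 0.295 to 1.33). Its 2 spots agreed, at -0.42 and -0.51 on day 1. Acly, the ATP citrate lyase gene, had -0.16 and -0.39 at day 1, -0.18 and -0.15 at day 3, and -0.05 and -0.16 at day 7, so all 6 replicates were below 0; its day 1 mean was -0.28 ± 0.16 (adjusted p = 0.164). Acaca, the cytosolic acetyl-CoA carboxylase gene, had spots that differed: one followed Fasn with -0.23 at day 1 and 0.30 at day 7, and the other stayed at 0.039 and -0.046. Acacb, the mitochondrial carboxylase gene, and Me1, the malic enzyme gene that supplies NADPH, had day means between -0.083 and 0.049.

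The 3 desaturase genes were all below 0 in both day 1 replicates, without passing. Fads2, the delta-6 desaturase gene of polyunsaturated fatty acids, had -0.34 and -0.26 at day 1, 0.08 and -0.15 at day 3, and -0.17 and 0.02 at day 7. Its day 1 mean was -0.30 ± 0.057 (adjusted p = 0.182, limma). Fads1, the delta-5 desaturase gene next to it on the chromosome, had -0.19 and -0.21 at day 1, -0.02 and -0.05 at day 3, and 0.17 and -0.01 at day 7. Its day 1 mean was -0.20 ± 0.018 (adjusted p = 0.198). Scd, the stearoyl-CoA desaturase gene that makes monounsaturated fatty acids, had -0.37 and -0.32 at day 1 and -0.20 in both day 3 replicates, and 0.11 and -0.33 at day 7. All 8 arrays of days 1 and 3 lay below 0 for it, yet its 2 spots stood at -0.70 and 0.0049 on day 1, and the adjusted p of their mean was 0.239. Scd2, the isoform that dominates in mouse brain, was no member and had -0.097 ± 0.078 at day 1 over 6 spots (adjusted p = 0.526).

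Among elongases, Elovl6 ran from below 0 at day 1 to above 0 at day 7. Elovl6, which lengthens the products of Fasn, had -0.47 and -0.24 at day 1, -0.07 and 0.14 at day 3, and 0.29 and 0.50 at day 7. The replicates of the 3 days did not overlap. Its means were -0.36 ± 0.16 at day 1 and 0.39 ± 0.15 at day 7, and the change between them was 0.75 (adjusted p = 0.0958, limma; 95% interval 0.45 to 1.05), a 1.68-fold difference that did not pass. Elovl7, an elongase of saturated very long chains, had 0.04 and -0.08 at day 1, 0.18 and 0.23 at day 3, and 0.05 and 0.06 at day 7. Both day 3 replicates were above the other 4. Its day 3 value of 0.20 ± 0.031 (adjusted p = 0.0945, limma) joins 1 spot at 0.41 with 1 at 0.0010. Elovl5, an elongase of polyunsaturated chains, was above 0 on all 8 arrays of days 1 and 3, with means of 0.085 ± 0.042 and 0.11 ± 0.026. Elovl1 and Elovl2 had day means between -0.17 and 0.14.

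The acyl-CoA synthetase genes, whose products activate free fatty acids, had no called member. Acsl3, which serves lipid droplet growth, had -0.17 and -0.19 at day 1, 0.16 and 0.17 at day 3, and 0.15 and 0.08 at day 7. Its replicates were close, all 4 arrays of day 1 lay below 0 and all 8 of days 3 and 7 above. Its change from day 1 to day 3 was 0.34 (adjusted p = 0.141, limma; 95% interval 0.22 to 0.46). Acsl6, the synthetase of neural polyunsaturated fatty acids, had 0.25 and 0.22 at day 3, but -0.17 and 0.18 at day 1, and 0.03 and 0.70 at day 7. Acsl1, with 7 spots, and Acsl4 and Acsl5 had day means between -0.091 and 0.089.

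Acot1 had the largest means of all members at days 1 and 3. It encodes a cytosolic thioesterase that releases free fatty acids from acyl-CoA and is a textbook target of PPAR alpha. Its ratios were 0.49 and 0.75 at day 1, 0.92 and 0.61 at day 3, and -0.28 and -0.23 at day 7. All 8 arrays of days 1 and 3 lay above 0 and all 4 of day 7 below. The rise at day 3 was 0.76 ± 0.22, or 1.70-fold (adjusted p = 0.0372, limma; 95% interval 1.45-fold to 1.98-fold). The value of 0.62 ± 0.18 at day 1 missed the threshold (adjusted p = 0.0654), as did the changes from day 1 to day 7 (-0.87, adjusted p = 0.0865) and from day 3 to day 7 (-1.01, adjusted p = 0.0613). At day 1 the size moved with the dye: the arrays with axotomized RNA in Cy5 had 0.71 and 1.12, and those with it in Cy3 had 0.27 and 0.37. Acot1 stood at -0.25 ± 0.038 on day 7 (adjusted p = 0.489). Acot2, its mitochondrial relative, had -0.053 and 0.093 at day 1, -0.038 and 0.047 at day 3, and 0.087 in both replicates at day 7. Its replicates split around 0 at days 1 and 3, without the high values of Acot1. Acot7, a brain thioesterase, had means between -0.048 and -0.0063. Acot1 and Acot2 are similar in sequence and each had 1 spot; cross-hybridisation between them was not tested.

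The carnitine palmitoyltransferases move acyl chains into mitochondria. Cpt2, the inner membrane enzyme, had 0.30 and 0.33 at day 1, 0.37 and 0.24 at day 3, and 0.07 and 0.02 at day 7. Every day 1 and day 3 replicate lay above both day 7 replicates, and all 8 arrays of days 1 and 3 were above 0. Cpt2 rose at day 3 by 0.30 ± 0.092, or 1.24-fold (adjusted p = 0.0468, limma; 95% interval 1.15-fold to 1.33-fold). Its day 1 value was as large, 0.32 ± 0.018, with an adjusted p of 0.057. It was also the 1 member (2.7%) that passed in the average of the 3 days (0.22, adjusted p = 0.048), where 0.316% of all genes passed, 0.168% as higher and 0.148% as lower. That call was lost with any one replicate left out (adjusted p from 0.0989 to 0.162), with quantile normalization (0.332) and with the robust variance model (0.0523). Cpt1a, the rate-limiting outer membrane enzyme that malonyl-CoA inhibits, had 0.39 and 0.24 at day 1, 0.24 and 0.26 at day 3, and 0.11 and -0.09 at day 7. Its means of 0.31 ± 0.11 and 0.25 ± 0.012 at days 1 and 3 did not pass (adjusted p = 0.118 and 0.147). Cpt1b, the muscle isoform, went the other way at day 1, with -0.15 and -0.14 (adjusted p = 0.192), from 1 spot at -0.28 and 1 at -0.017.

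**Figure D2:**
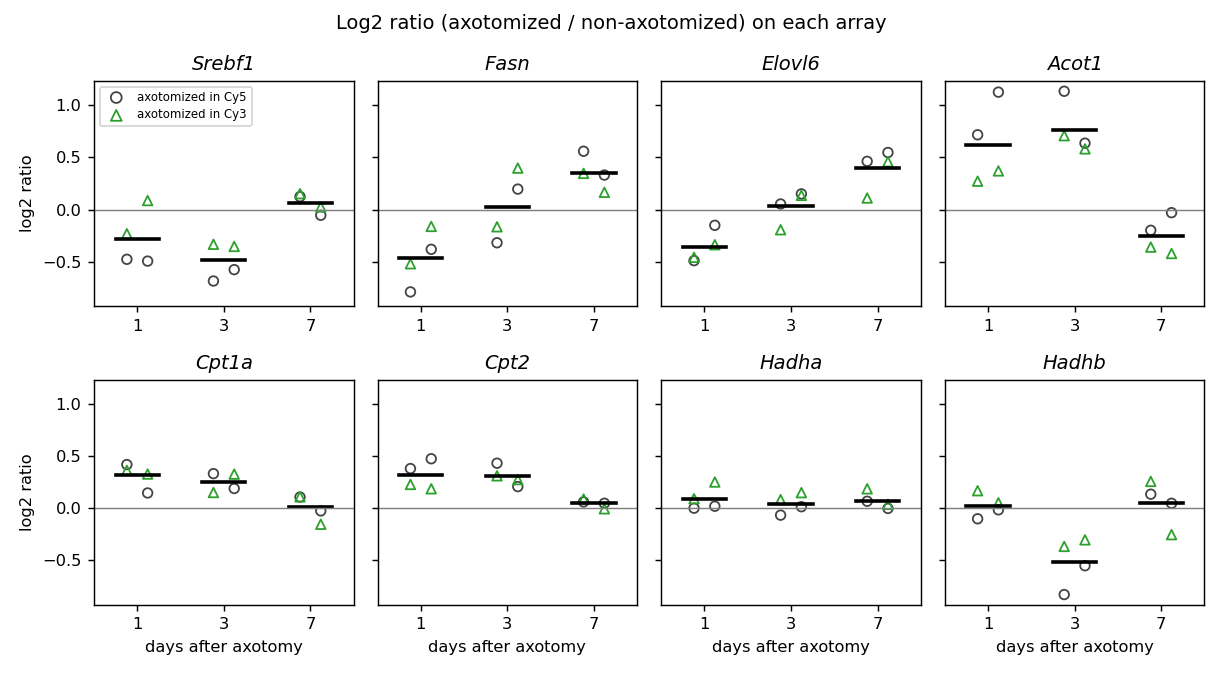
Log2 ratio on each of the 12 arrays for 8 members at 1, 3 and 7 days after axotomy; circles are arrays with axotomized RNA in Cy5, triangles those with it in Cy3, the 2 biological replicates stand side by side, and bars are the day means. Srebf1 is lowest at day 3 (-0.49), Fasn and Elovl6 climb from below to above 0, Acot1, Cpt1a and Cpt2 are high at days 1 and 3, and Hadhb lies below Hadha at day 3.

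The acyl-CoA dehydrogenases start each round of oxidation, and their chain length differs. Acadm, for medium chains, had 0.28 and 0.21 at day 1, 0.23 and 0.12 at day 3, and 0.03 and 0.13 at day 7. Acadl, for long chains, had 0.42 and 0.21 at day 1 and 0.09 and 0.02 at day 3. Acads, for short chains, had 0.20 and 0.23 at day 1 and 0.18 and 0.05 at day 3. None passed at day 1 (means 0.25 ± 0.051, 0.32 ± 0.15 and 0.21 ± 0.018; adjusted p = 0.113, 0.149 and 0.132, limma), and each had all 4 arrays of that day above 0. The Acads mean joins a spot at 0.40 with one at 0.026. Acadvl, for very long chains, was above 0 at day 3 (0.52 and 0.17), and its day 7 replicates were 0.01 and -0.71.

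Hadha and Hadhb encode the 2 subunits of the mitochondrial trifunctional protein and lie head to head at the region printed above. Hadhb had 0.03 and 0.02 at day 1, -0.60 and -0.43 at day 3, and 0.19 and -0.10 at day 7. Hadha had 0.05 and 0.13 at day 1, 0.01 and 0.08 at day 3, and 0.13 and 0.02 at day 7. At day 3 the mean of Hadhb was -0.51 ± 0.12 (adjusted p = 0.0561, limma), below 0 on all 4 arrays, and that of Hadha was 0.044 ± 0.052 over 4 spots (95% interval -0.067 to 0.16). The confidence intervals of both genes at day 3 do not overlap (Hadhb -0.70 to -0.32), but Hadhb rests on 1 spot and the difference between the genes was not tested. Ehhadh, the peroxisomal bifunctional enzyme gene and a classical PPAR alpha target in rodent liver, had day means between 0.021 and 0.076.

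Ucp2, a mitochondrial carrier gene that PPARs and fatty acids induce, had 0.25 and 0.27 at day 1, 0.06 and 0.21 at day 3, and 0.02 and -0.04 at day 7. All 8 arrays of days 1 and 3 were above 0, and its day 1 mean of 0.26 ± 0.013 did not pass (adjusted p = 0.0975, limma). Pdk4, the kinase that shuts pyruvate dehydrogenase when fatty acids are burnt, had 0.011 and 0.044 at day 1, 0.029 and -0.021 at day 3, and 0.010 and 0.0059 at day 7, with a day 1 interval of -0.054 to 0.11. Fabp7, a fatty acid carrier of radial glia and astrocytes, had 0.18 and 0.01 at day 1, -0.19 and 0.26 at day 3, and 0.42 and 0.05 at day 7. Fabp5, a carrier in several neural cell types, had -0.0020 and -0.015 at day 1, 0.37 and -0.02 at day 3, and 0.11 and -0.16 at day 7. For both carriers the replicates of days 3 and 7 lay far apart. At day 1 the ratio of Fabp5 turned with the dye, from -0.28 and -0.52 in Cy5 to 0.28 and 0.49 in Cy3.

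The oxidation genes stood above the synthesis genes at days 1 and 3 and below them at day 7. The 13 synthesis and desaturation genes (synthesis, desaturation and elongation) had class means of -0.17 and -0.12 in the day 1 replicates, -0.047 and 0.0087 at day 3, and 0.11 and 0.032 at day 7. The 13 thioesterase and oxidation genes (with carnitine transfer) had 0.15 and 0.17, then 0.15 and 0.085, then 0.024 and -0.084. The difference, oxidation minus synthesis, was 0.33 and 0.29 at day 1, 0.20 and 0.076 at day 3, and -0.087 and -0.12 at day 7. All 8 arrays of days 1 and 3 had a difference above 0 and all 4 arrays of day 7 one below 0, in both dye orientations. Within single arrays it ran from 0.23 to 0.37 at day 1, from 0.053 to 0.21 at day 3 and from -0.16 to -0.064 at day 7. The day means were 0.31 ± 0.025, 0.14 ± 0.089 and -0.10 ± 0.020, while the median of all genes was 0.0098, 0.0063 and 0.0033. No test was made of a score over chosen members. Without Acot1 the differences were 0.27, 0.085 and -0.083. The class medians of the members' day means were 0.10 for oxidation and -0.096 for synthesis at day 1 and 0.034 and 0.053 at day 7, and their differences were 0.20, 0.064 and -0.018 at days 1, 3 and 7.

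**Figure D3:**
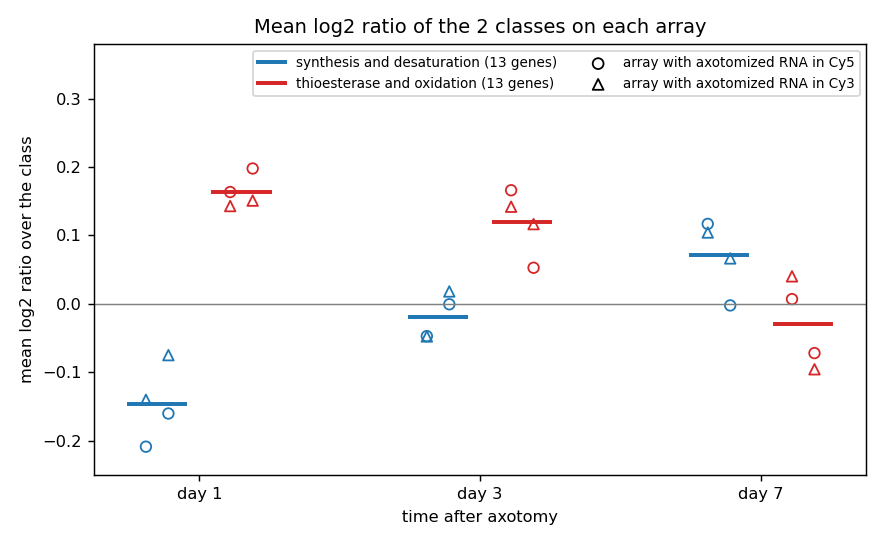
Mean log2 ratio of the 13 synthesis and desaturation genes (blue) and the 13 thioesterase and oxidation genes (red) on each array at days 1, 3 and 7; circles are arrays with axotomized RNA in Cy5, triangles those with it in Cy3, and bars are the means of the 2 replicates. Red lies above blue at day 1 by 0.31 and at day 3 by 0.14, and below it at day 7 by 0.10.

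Counted gene by gene, both day 1 replicates were below 0 for 8 of 13 synthesis genes and 1 of 13 oxidation genes, where 26% of all genes were; they were above 0 for 2 and 9, where 35.5% of all genes were. At day 3 both were below 0 for 5 and 2 genes (25.9% of all) and above 0 for 3 and 9 (32.1%). At day 7 the classes had equal counts, with 2 and 2 below (27.5%) and 6 and 6 above (31.7%). Over days 1 and 3 together, 8 of 13 oxidation genes were above 0 in all 4 replicates and 1 was below 0 in all 4. Of the 13 synthesis genes, 2 were above and 3 below in all 4. Over all genes the shares were 15.5% above and 10.4% below. From day 1 to day 7 the replicates did not overlap, with day 7 higher, for 7 of 13 synthesis genes (21.2% of all genes). The opposite order held for 7 of 13 oxidation genes (24.9%). Day 7 was lower in this way for 1 synthesis gene and higher for 1 oxidation gene. None of the 37 members passed limma's test of a difference between days: 0% of all genes passed for day 1 to day 3, 0.121% for day 1 to day 7 and 0.356% for day 3 to day 7. At an unadjusted p under 0.05 there were 8, 14 and 11 members, against 8.85, 12.9 and 13% of all genes. From day 1 to day 3 these were 4 higher (4.23% of all genes) and 4 lower (4.62%), from day 1 to day 7 they were 6 higher (5.66%) and 8 lower (7.22%), and from day 3 to day 7 they were 4 higher (6.33%) and 7 lower (6.62%). In the average of days 15 members stood out at that level (14.9% of all genes), 9 of them higher (8.82%) and 6 lower (6.12%). Across the 37 members, which are not independent and share arrays within a day, Pearson's r was 0.59 between the day 1 and day 3 values and -0.39 between days 1 and 7; over all 14871 genes it was 0.30 and -0.20.

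Over the 37 members, r between replicates of the same day was 0.81, 0.72 and 0.25 for days 1, 3 and 7, beside 0.48, 0.40 and 0.29 over all genes. Between the dye-swapped arrays of a replicate it ran from 0.28 to 0.83 over the members and from -0.080 to 0.47 over all genes. The lowest value over all genes was that of day 1 replicate 2. Its array pair had an r of 0.32 over the members. In that pair 39.7% of all genes kept their sign between the dyes, against 45.2 to 55.9% in the other replicates.

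Neighbouring pathways were described with lists of further genes, shown in the plot of list means. Of 18 measured genes of peroxisomal oxidation, 16 were above 0 at day 1 and 16 at day 3, where 56.4 and 53.8% of all genes were, with medians of 0.073 and 0.13. Crot, the octanoyl carnitine transferase, rose at day 3 by 0.53 ± 0.046 (adjusted p = 0.0416, limma). Abcd3, a peroxisomal acyl-CoA transporter, rose by 0.44 ± 0.039 on that day (adjusted p = 0.0290). They were the 2 of 18 called, where 0.592% of all genes passed as higher at day 3. None of the 18 passed as lower, though Acaa1b (-0.093) and Slc27a2 (-0.078) had day 3 means below 0. Of 25 further genes of mitochondrial oxidation, 19 were above 0 at day 1 and 21 at day 3, with medians of 0.046 and 0.077 and none passing; Hadh, the short-chain hydroxyacyl-CoA dehydrogenase gene, had 0.24 ± 0.088 at day 3 (adjusted p = 0.0832).

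In the lists of synthesis, uptake and storage few genes passed. Over all genes, 0.592% passed at day 1 in either direction, and at day 3 0.592% passed as higher and 0.437% as lower. Among 19 further synthesis and elongation genes, Acss1, the mitochondrial acetyl-CoA synthetase that turns acetate into fuel, rose at day 1 by 0.39 ± 0.054 (adjusted p = 0.0292, limma). Fads3, a relative of the desaturases above, fell by 0.36 at day 3 (SD 0.0069, adjusted p = 0.0356). Among 17 uptake and binding genes, Slc27a5, a fatty acid transport protein, rose at day 3 by 0.52 ± 0.19 (adjusted p = 0.0416) and Angptl4, a secreted lipase inhibitor and PPAR target, by 0.30 ± 0.033 (adjusted p = 0.0412). The 25 lipid droplet genes, the 7 ketone body genes and the 10 further thioesterase genes had none past the threshold on any day and medians between -0.023 and 0.025. Their members with the smallest p were Agpat4 (0.36 ± 0.083), Bdh1 (-0.26, SD 0.0019) and Ppt1 (0.42 ± 0.075), all at day 3.

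The sterol branch, which SREBP-2 controls, was low at day 1 as well. Insig1, the SREBP anchor and itself an SREBP target, fell at day 1 by 0.72 ± 0.16 (adjusted p = 0.0316, limma), the 1 gene of 22 further lipid regulators that passed on any day. Srebf2 itself had -0.15 ± 0.21 (adjusted p = 0.432). Of 16 measured cholesterol synthesis genes 5 fell at day 1 (Mvd, Idi1, Fdps, Sqle and Msmo1, by 0.61 to 0.83; 0.592% of all genes passed on that day), and the median over the list was -0.34. At day 7 all 16 were above 0 (52.2% of all genes were), with a median of 0.16 and none passing.

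**Figure D4:**
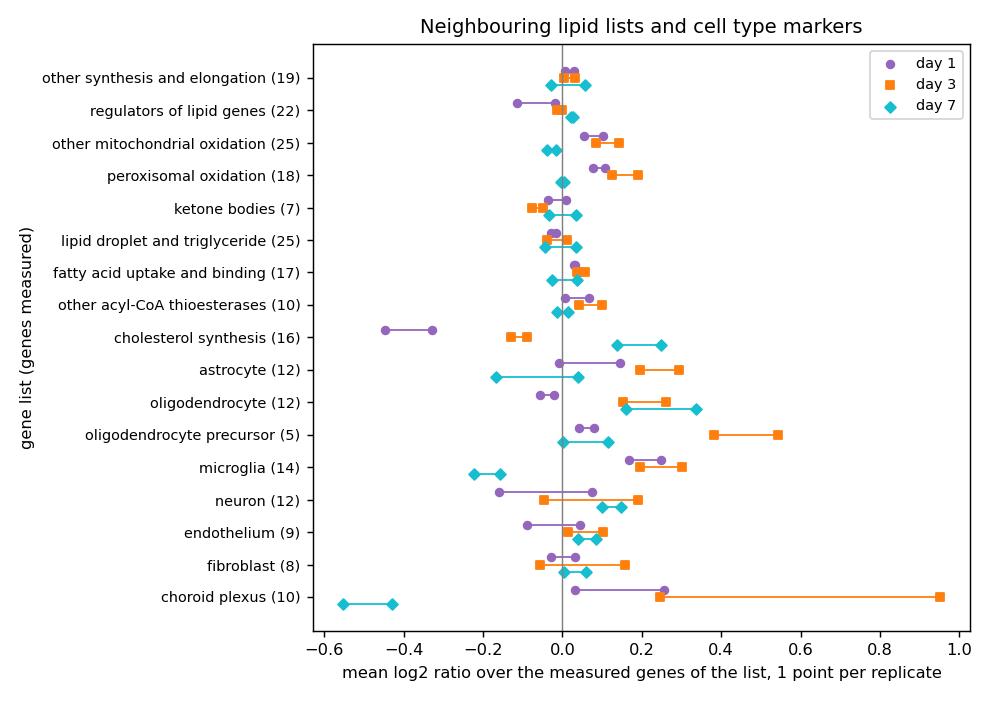
Mean log2 ratio over the measured genes of each neighbouring lipid list and each cell type marker list (rows, number of genes in brackets); each point is 1 biological replicate, joined by a line within a day. Cholesterol synthesis lies below 0 at day 1 and above 0 at day 7, peroxisomal and mitochondrial oxidation lie above 0 at days 1 and 3, and microglial markers lie above 0 at days 1 and 3 and below 0 at day 7.

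Markers of the cell types in the slice differed over the same days, with values given as list means of the 2 replicates. Of 14 microglial markers, 13 were above 0 at day 1, 14 at day 3 and 1 at day 7, with means of 0.17 and 0.25, then 0.30 and 0.19, then -0.16 and -0.22; none passed. At these days 56.4, 53.8 and 52.2% of all genes were above 0. The oxidation class was above 0 in both replicates of days 1 and 3, and its day 7 replicates were 0.024 and -0.084. The smallest p of the list was that of Trem2, a microglial lipid receptor, with 0.43 ± 0.045 at day 1, 0.33 ± 0.18 at day 3 and -0.35 ± 0.0057 at day 7 (adjusted p = 0.0679, 0.0898 and 0.298, limma). Of 12 astrocyte markers 3 rose at day 3, namely Glul, Gjb6 and Aqp4 (0.592% of all genes were called higher). List means were 0.29 and 0.19 on that day and -0.0084 and 0.15 at day 1. Of the 12, 8 were above 0 at day 1, 9 at day 3 and 5 at day 7. The lowest marker had -0.10 at day 3 and -0.54 at day 7. The 5 oligodendrocyte precursor markers had 0.38 and 0.54 at day 3, where Pdgfra and Sox10 rose, and the 12 oligodendrocyte markers had 0.26 and 0.15 at day 3 and 0.34 and 0.16 at day 7 with none passing (smallest p in Mobp, 0.40 ± 0.0048 at day 7, adjusted p = 0.238). The 12 neuronal markers had -0.16 and 0.073 at day 1, and the 9 endothelial and 8 fibroblast markers had means within 0.16 of 0 in all replicates. The 10 choroid plexus markers had 0.25 and 0.95 at day 3 and -0.43 and -0.55 at day 7. No marker of the last 4 lists passed; their smallest p belonged to Nefl (0.27 ± 0.12) and Pecam1 (-0.15 ± 0.11) at day 7 and to Col3a1 (0.32 ± 0.13) and Enpp2 (0.96 ± 0.45) at day 3. The part of cell composition in the lipid gene values was not tested.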

How the data were processed

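Ratios from 12 arrays of 2 colours were analysed. Per the labels, they are Agilent whole-genome rat oligonucleotide arrays. The deposited values are log2 ratios made by the authors with limma, per the submitters' processing notes; these name no version and no normalization, and neither the background correction nor the base of the logarithm is given in the sources used here (base 2 is limma's convention). Column medians ran from -0.022 to 0.027. On 731 unnamed spots the ratio turned with the dye (median -4.26 with axotomized RNA in Cy5, 3.81 in Cy3), so the columns likely run in 1 RNA direction.

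Of 44290 spots, 23535 carry 1 symbol of the platform annotation; these were averaged to 14871 genes, then dye-swapped pairs were averaged. Dim spots could not be filtered. With limma 3.58.1 in R 4.3.3 (with data.table, version 1.17.8) 1 coefficient per day was fitted to the 6 replicates with shared spread (3 residual, 2.72 prior degrees of freedom), tested two-sided and adjusted over all genes at 0.05; the average and differences of days came from the same fit. Figures used Python 3.11.15 and matplotlib 3.10.9. Simulated data over 14871 genes had independent normal noise at the fit's variance of each gene, which is shrunk towards a common value. Of 100 genes a day moved by 0.5, 93 to 98% were recovered, and 98 to 100% of those moved by 1. Of the calls, 4 of 202, 13 of 206 and 11 of 204 were false. Dye and spot errors were not simulated, so these rates do not give the power in the real data.

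Members, classes and lists were chosen with earlier results of these data known. All members are given by value or range; those past the threshold, and in each class the 2 with the smallest p, in every replicate; from each further list those past the threshold, otherwise the 1 with the smallest p. Alternatives were replicates left out, a replicate block, spot medians, quantile normalization, centring, each dye alone, arrays as values in a random block with and without a dye term, each day alone, a robust variance model and other class definitions; fits of single spots, class medians of day means and a class without Acot1 were added after seeing the data.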

Additional observations from a re-analysis of the deposited data

Results flagged for a closer look

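The class differences were noted because both replicates of one day lay on one side of 0 and both of another day on the other; the changes were not tested. The mean of the synthesis and desaturation genes changed by 0.22 from day 1 to day 7. Oxidation minus synthesis changed by -0.41 from day 1 to day 7 and by -0.24 from day 3 to day 7. Dixon's test at its 95% limit was run on the 4 arrays of each day for 69 combinations of a member or class score with a day. It covered the members past the threshold and, in each class, the 2 with the smallest p. No array stood apart there, where chance flags about 1 in 20. The other members were not tested, among them Acadvl and Scd, which had -0.90, 0.057, 0.16 and 0.245 on the day 7 arrays.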

How the results depend on the processing

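The counts of called members rest on the fit. At day 3 the count of 3 ran from 0 to 2 with a replicate left out: it was 0 without either replicate of day 1 or of day 3 and 2 (Srebf1 and Hadhb) without either of day 7. It was 0 with a replicate block, 0 with each day alone, 1 with quantile normalization, 1 with Cy3 only, 8 with all arrays as values and the replicate as a random block, 7 when a term for dye joined that fit; a median of spots, centring and the robust model gave the same 3, and Cy5 only gave 3 with Hadhb in place of Cpt2. At day 1 the count of 0 stayed 0 with a replicate left out and became 1 with a replicate block, 2 with quantile normalization, 5 with Cy5 only, 14 in the random block and 12 with the dye term. At day 7 it was 0 with a replicate left out and 1 in both random block fits. For the average of days the count of 1 was 0 with any replicate left out, 0 with a replicate block or the robust model, 2 with a median of spots, 9 and 8 with Cy5 or Cy3 only, and 9 and 7 in the random block fits. Between days, counts of 0 stayed 0 with a replicate left out. In the random block fits they became 3 and 1 (day 1 to day 3), 11 and 8 (day 1 to day 7) and 5 and 3 (day 3 to day 7). Over all genes these fits called 389 and 290, 868 and 726, and 917 and 832. In the main fit 0, 18 and 53 genes passed. Day 1 to day 7 gave 1 with a replicate block and 1 with quantile normalization, and day 3 to day 7 gave 1 with quantile normalization and 1 with Cy3 only. For the average of days, Cy5 only called 2761 of all 14871 genes and Cy3 only 2645, beside 47 in the main fit. The random block fits called 851 and 695 genes for that average, 720 and 594 at day 1, and 1064 and 958 at day 3. The random block treats technical arrays as values, which adds degrees of freedom. The cause of the other changes was not tested. Over all genes the counts ran from 0 to 720 at day 1 (main 88), 0 to 1064 at day 3 (153) and 0 to 288 at day 7 (0).

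Under no alternative at the level of genes did Srebf1, Acot1 or Cpt2 change sign at day 3. Without single replicates Srebf1 ran from -0.51 to -0.46, Acot1 from 0.61 to 0.92 and Cpt2 from 0.24 to 0.37, and Cpt2 averaged over days from 0.20 to 0.24. Adjusted p over these alternatives ran from 0.00175 to 0.152 for Srebf1, 0.000954 to 0.135 for Acot1 and 0.00106 to 0.594 for Cpt2 at day 3. With quantile normalization Srebf1 had -1.09 and Acot1 1.52. Of the 3 spots of Srebf1, 1 had 0.0062 at day 3 when fitted alone. Oxidation minus synthesis kept its sign in all alternatives. At day 1 it ran from 0.29 to 0.33 with a replicate left out, and was 0.49 with quantile normalization, 0.37 with Cy5 only, 0.25 with Cy3 only, 0.25 with medians taken within each replicate, 0.20 with medians of the members' day means and 0.27 without Acot1. At day 3 it ran from 0.076 to 0.20 with a replicate left out, the lower value without day 3 replicate 1. At day 7 it ran from -0.12 to -0.087, and was -0.25 with quantile normalization, -0.066 with medians within replicates and -0.018 with medians of day means. The replicate number is shared between days in the labels, which do not say that same-numbered replicates belong together. Such replicates deviated together between days 1 and 3 (r = 0.26), but not with day 7 (-0.068 and 0.014). Whether those of days 1 and 3 share a batch was not tested, so the block was kept as an alternative only. Signal over background is not in the table, so no limit on dim genes can be given.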

Other observations

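For 6 members with several spots (Srebf1, Acaca, Scd, Elovl7, Acads and Cpt1b) 1 spot had day means between -0.062 and 0.14 while another had larger values. For these the mean over spots lies below the larger spot in size. Day 7 replicate 2 held the lowest and the highest member value of any array: Acadvl had -1.19 with axotomized RNA in Cy5 and -0.24 in Cy3, Acsl6 had 0.22 and 1.18, and Scd had -0.90 and 0.245. The array pairs of that replicate had an r of 0.28 over the members.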
